A study of Mus musculus with 6 samples.

Results

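Circular RNAs whose host gene carries only a provisional name were examined in the striatum of mice that lack the RNA-binding protein HuD. A circRNA was taken when it stood in the deposited table of higher circRNAs, in the deposited table of lower circRNAs or in the list of circRNAs that the study found bound by HuD, and its host symbol began with XLOC_, consisted of Gm, AK, BC, LOC or AI and a number, or ended in Rik. This gave 138 circRNAs of 119 hosts, out of 14236 circRNA probes on the array and 3056 circRNAs for which a host or a position was at hand. The lower table held 97 of the 138, the higher table held 35 and the HuD-bound list held 7. A single circRNA, mmu_circRNA_39139 of XLOC_019302, stood both in the lower table and on the bound list. The host names comprised 52 of the Rik type, 37 of the Gm type, 24 of the XLOC type, 13 of the AK type, 8 of the BC type and 4 of the AI type, and no LOC name occurred.

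The arrays compared striatum from 3 HuD KO mice (Elavl4 -/-, with no driver or conditional allele named) with striatum from 3 wild type (WT) littermates, all adult males of the C57BL6 strain, without any other allele or agent named. RNA of each mouse was digested with RNase R, an exonuclease that degrades linear RNA, and hybridised in 1 colour (Cy3) to a circRNA array whose probes lie across back-splice junctions. HuD KO replicates 1 and 2 shared a scan, HuD KO replicate 3 was scanned alone and the 3 WT arrays shared a further scan, so scan and genotype cannot be told apart. The bound list came from other mice, in which myc-tagged HuD driven by the Camk2a promoter, which is active in forebrain neurons, was immunoprecipitated from striatum pooled over animals. The list therefore rests on transgenic and not on native HuD.

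An exonic circRNA forms when the spliceosome joins the end of an exon back to the start of the same or an upstream exon, which leaves a covalently closed molecule without free ends, and intronic circles come from intron lariats that escape debranching. HuD (Elavl4) is a neuronal RNA-binding protein known to bind AU-rich elements and to stabilise many of its target transcripts. XLOC names are identifiers that transcript assembly programs hand out to loci without a gene name, Gm and Rik names are placeholders for predicted or cDNA-derived mouse genes, and AK, BC and AI names are sequence accessions used as symbols. Such hosts are often long noncoding RNAs, pseudogenes or genes that received a proper name later.

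Each circRNA was measured by 1 probe of 60 bases spanning its junction, and all 138 probes had that length. The probes that carry the main contrasts are printed first, in the orientation of the deposited tables, with the position of the circle as the tables give it (build not stated there). The pair of XLOC_023637, which had the largest positive differences of all members, lies on the plus strand of chromosome 8, from 35806707 to 35812434 for mmu_circRNA_42789 and from 35806996 to 35812434 for mmu_circRNA_42790. The starts were 289 bases apart and the end was shared. Capitals mark the run of 22 bases that both probes hold, and the bases after it differ.
mmu_circRNA_42789: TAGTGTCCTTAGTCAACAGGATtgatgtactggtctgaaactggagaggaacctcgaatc
mmu_circRNA_42790: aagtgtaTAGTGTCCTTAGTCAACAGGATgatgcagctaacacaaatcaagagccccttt

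Placement of a circle within another gene, here and below, went by position alone, and strands were not compared. XLOC_002678, a locus within the monocarboxylate transporter gene Slc16a7, had both of its circles on the bound list. They lie on the minus strand of chromosome 10, from 125339138 to 125341850 for mmu_circRNA_22768 and from 125339138 to 125377578 for mmu_circRNA_22769. Capitals mark the 18 bases their probes share.
mmu_circRNA_22768: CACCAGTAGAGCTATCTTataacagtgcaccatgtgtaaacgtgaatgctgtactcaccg
mmu_circRNA_22769: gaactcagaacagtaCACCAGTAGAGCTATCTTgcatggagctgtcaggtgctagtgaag

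The probe of XLOC_027457 (mmu_circRNA_19555, minus strand of chromosome X, 170005573 to 170008613) is shown because HuD bound this circle and because a run of 21 bases, in capitals, lies in it at positions 4 to 24 and again at positions 25 to 45. A repeat of 12 or more bases occurred in 1 of the 138 member probes and in 3 of the 3056 probes with a sequence (0.0982%).
mmu_circRNA_19555: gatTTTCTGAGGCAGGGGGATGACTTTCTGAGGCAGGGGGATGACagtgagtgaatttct

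XLOC_010800 gave rise to the only group of 4 member circles from 1 host. They lie on the minus strand of chromosome 17 and span 64 to 160 bases each. By position, without a comparison of strands, the gene table places mmu_circRNA_011174 (39846503 to 39846663) inside Rn18s-rs5, a pseudogene related to 18S ribosomal RNA. The other circles lie in no gene of that table, at 835 bases (mmu_circRNA_015214), 899 bases (mmu_circRNA_005444) and 2061 bases (mmu_circRNA_014320) from it. The probes of the 4 circles share no run longer than 7 bases with each other.
mmu_circRNA_011174: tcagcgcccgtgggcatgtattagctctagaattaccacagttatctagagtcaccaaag
mmu_circRNA_015214: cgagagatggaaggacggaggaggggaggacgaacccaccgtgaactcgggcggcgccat
mmu_circRNA_005444: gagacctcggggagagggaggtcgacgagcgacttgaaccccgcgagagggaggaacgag
mmu_circRNA_014320: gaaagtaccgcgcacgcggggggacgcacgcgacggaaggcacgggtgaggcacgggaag

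Levels are given as log2 of the background-corrected intensity minus the 75th percentile of the circRNA probes on the same array, so that 0 marks that percentile and 1 unit is a doubling. The percentile stood at intensities of 181 to 277 on the HuD KO arrays and 143 to 164 on the WT arrays, between 84.0% and 96.7% of circRNA probes were well above background, and no spot was saturated. Limma tested 13431 probes, of which 26.1% were called higher and 37.2% lower in HuD KO at an adjusted p under 0.05. The SE printed with a difference is limma's moderated SE, which is drawn towards the spread of all tested probes. For a circle with widely spread arrays it is smaller than those arrays alone would give. Of all called probes 41.3% were higher, a share that was 54.8% with quantile normalization, 52.2% with arrays centred on the median, 67.7% without scaling, 55.7% with normexp and quantile normalization and 8.65% when the control probes for circRNA set the scale. Across the tested probes the log2 change had a median of -0.11, and the median SD between arrays was 0.22 in HuD KO and 0.16 in WT. No circRNA of Elavl4 itself was among the 3056, so the knockout was not checked on these arrays. All 138 members passed the filter on dim probes. The authors chose the deposited tables on this same contrast (a 2-fold limit and an unadjusted p), so differences of the table members are given as descriptions without a test, and the test is given for bound members.

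The 97 members of the lower table had a median log2 change of -2.52, and the 35 members of the higher table a median of 1.29. The size for the lower group depended on the processing, with -1.26 and -1.12 under normexp background correction, -1.59 on the authors' normalized values and -2.0 over the 66 members well above background on all arrays. That for the higher group was 0.58 when the control probes for circRNA set the scale. All 97 had their 3 HuD KO arrays (2 for a pair of members with a flagged spot) below every WT array, which was so for 40.4% of all tested probes, and 34 of the 35 had them above every WT array, which was so for 29.8%. The choice of the tables largely fixes these counts. The exception was mmu_circRNA_38098 of 9330182L06Rik. On the per-array medians the lower group stood at -2.81, -2.73 and -2.31 in HuD KO and at -0.27, -0.17 and -0.38 in WT. The higher group stood at 0.80, 0.75 and 0.38 in HuD KO and at -0.71, -0.73 and -1.12 in WT. The other circRNAs of the same tables had medians of -1.96 in the lower table (1251 circRNAs) and 1.33 in the higher table (1096 of 1105 tested), and these differences from the members were not tested. Of the table circRNAs with provisional host names 73.5% were in the lower table, against 53.1% of the 2356 others. Outside the exonic class (classes are described below) the others leaned lower too. Sense overlapping ones were 189 lower and 115 higher, and intergenic ones 72 and 7. Exonic others were 851 lower and 935 higher, where exonic members were 39 and 14. The part of class in this lean was not tested.

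**Figure D1:**
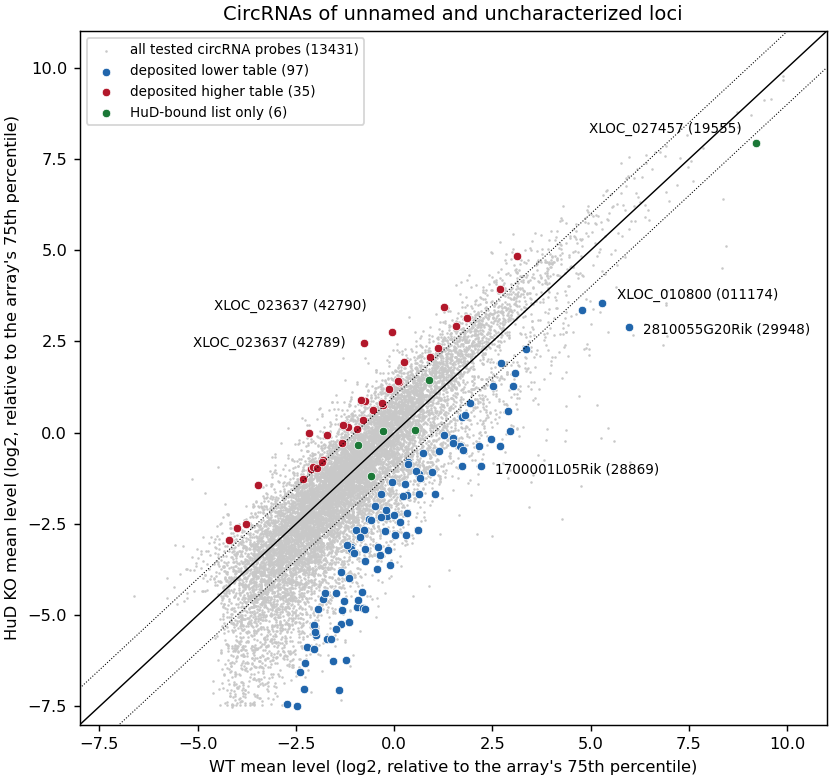
Mean level in HuD KO (vertical axis) against mean level in WT (horizontal axis), both as log2 relative to the array's 75th percentile, for the 138 members in colour and the 13431 tested probes in grey. The solid line marks equal levels and the dotted lines a 2-fold difference. The XLOC_023637 pair lies far above the upper dotted line, with mean HuD KO levels of 2.46 and 2.77, and the lower-table members fan out downwards at the dim end.

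Both circles of XLOC_023637 were the members with the largest positive differences. The gene table holds no such symbol, and the positions fall inside Gm19410, a predicted protein-coding gene. For mmu_circRNA_42789 the corrected intensities were 1079, 1317 and 1249 in HuD KO and 125, 100.2 and 59.5 in WT. On the scaled log2 axis these were 2.59, 2.58 and 2.20 against -0.39, -0.65 and -1.26, a difference of 3.22 ± 0.24 (SE), or 9.33-fold. For mmu_circRNA_42790 the scaled levels were 2.68, 2.71 and 2.91 in HuD KO and 0.25, 0.19 and -0.64 in WT, a difference of 2.83 ± 0.25 (SE), or 7.12-fold. The groups were far apart for both circles, and WT replicate 3 was the lowest array for each. Among all tested probes their differences ranked 4 and 7 from the top. The deposited tables list mmu-miR-215-3p among the predicted miRNA sites of both circles and no other miRNA for both. Its mature sequence is printed with the seed in capitals.
mmu-miR-215-3p: uCUGUCAUucuguaggccaau

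The remaining members with the largest positive differences were those of BC062895, XLOC_024544 and BC065048. BC062895 lies within N4bp2l2 on chromosome 5, and its mmu_circRNA_39744 read 3.60, 3.63 and 3.14 in HuD KO and 1.25, 1.24 and 1.34 in WT, a log2 difference of 2.18 ± 0.17 (SE). A second BC062895 circle in the higher table, mmu_circRNA_39748, ends at the same base, and its probe shares a run of 33 bases (capitals). Its log2 difference was 1.68 ± 0.14 (SE), and it is named for this overlap after its values were seen.
mmu_circRNA_39744: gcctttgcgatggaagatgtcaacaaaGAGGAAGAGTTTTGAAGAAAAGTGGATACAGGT
mmu_circRNA_39748: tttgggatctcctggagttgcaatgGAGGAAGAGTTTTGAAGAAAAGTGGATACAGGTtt

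XLOC_024544 lies within the long noncoding RNA gene Gm26843 on chromosome 8, and its mmu_circRNA_43334 read 0.13, 0.22 and -0.36 in HuD KO and -2.25, -2.16 and -2.12 in WT, a log2 difference of 2.17 ± 0.18 (SE). BC065048 and Gm872 are both names for parts of Cfap54, a gene of motile cilia on chromosome 10. The BC065048 circle mmu_circRNA_22452 read -1.53, -1.36 and -1.44 in HuD KO and -3.66, -3.48 and -3.29 in WT, a log2 difference of 2.03 ± 0.15 (SE). The Gm872 circle mmu_circRNA_22456, named here for its shared gene after its values were seen, had a log2 difference of 1.19 ± 0.16 (SE). With normexp and the 75th percentile the difference was 0.57 for mmu_circRNA_22452 and 1.24 for mmu_circRNA_43334.

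Among members well above background on all 6 arrays, the largest negative differences belonged to 5 circles, 4 of them from long noncoding RNA genes. The circle of 1700123O12Rik (mmu_circRNA_36445) read -3.18, -3.90 and -4.08 in HuD KO and -0.62, -0.36 and -0.30 in WT, a log2 difference of -3.29 ± 0.24 (SE). The circle of 2610307P16Rik (mmu_circRNA_26160) read -2.81, -2.87 and -2.29 against 0.51, 0.84 and 0.44, a difference of -3.25 ± 0.20. In both, every HuD KO array was more than 2 units under every WT array.

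The circle of 1700001L05Rik (mmu_circRNA_28869) read -1.27, -1.57 and 0.11 in HuD KO and 2.0, 2.30 and 2.32 in WT, a log2 difference of -3.12 ± 0.40 (SE). HuD KO replicate 3 was closer to WT there than the other knockout arrays. XLOC_027202 on chromosome X, in no gene of the table, had mmu_circRNA_45592 at -2.82, -2.98 and -2.59 against 0.56, 0.51 and -0.20, a difference of -3.09 ± 0.23. The intronic circle of 2810055G20Rik, mmu_circRNA_29948, came from a host now called Mir99ahg, the noncoding host transcript of microRNAs of the miR-99a cluster. It read 3.09, 2.94 and 2.67 in HuD KO and 5.69, 6.12 and 6.09 in WT, a log2 difference of -3.06 ± 0.18 (SE) or 8.34-fold. The span that the gene table gives for Mir99ahg does not contain this circle. With normexp and the 75th percentile the difference was -1.49 for mmu_circRNA_36445, -2.10 for mmu_circRNA_26160 and -1.81 for mmu_circRNA_45592.

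**Figure D2:**
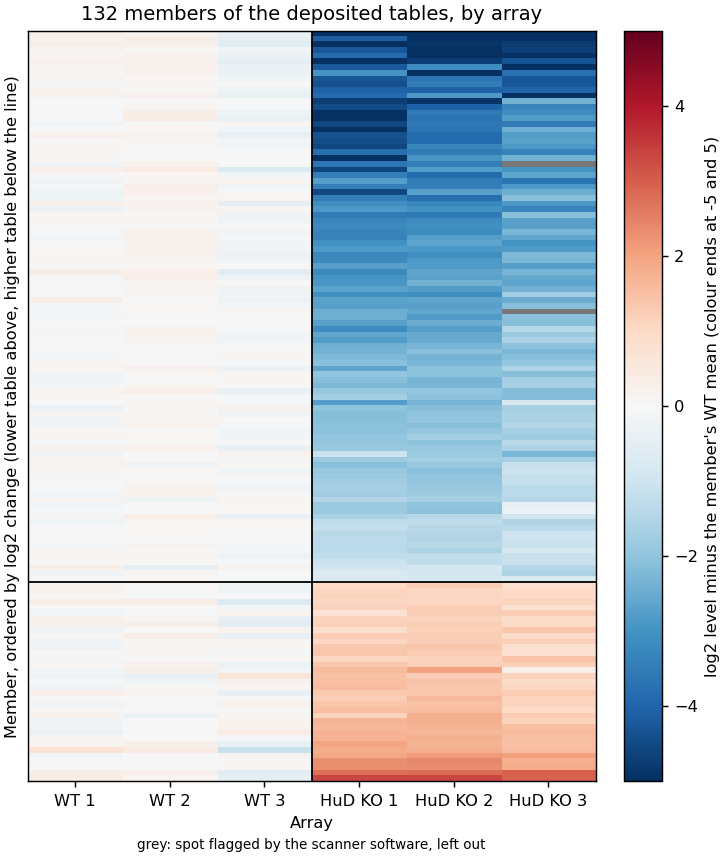
Log2 level minus the member's WT mean (colour) on each of the 6 arrays (columns) for the members of the deposited tables, ordered by log2 change. The 97 lower-table members are above the horizontal line and the 35 higher-table members below it. HuD KO replicate 3 is paler than replicates 1 and 2 for most members of both blocks.

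For most members HuD KO replicate 3 lay nearer to WT than the other knockout arrays did. It was the highest of the 3 knockout arrays for 67 of the 97 lower-table members (69.1%), and the lowest of them for 26 of the 35 higher-table members (74.3%). The same held for the other circRNAs of the tables, at 72.3% of the lower and 68.4% of the higher table. Over all tested probes this array was highest in 39.6% and lowest in 40.8%. It is the array with a scan of its own, and the part of the scan in this was not tested.

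Part of the lower table was near background on 1 or more knockout arrays. All 97 were well above background on the 3 WT arrays, but 31 were not on at least 1 HuD KO array, and 7 were not on any of them. HuD KO replicate 1 passed this mark for the fewest circRNA probes, 84.0%, against 93.8% to 96.7% on the other arrays. How many of the 31 failed on that array alone is not given here. Among the array's circRNA probes 11834 passed on each of the 6 arrays, where 13431 were tested. The filter on dim probes takes a probe that passes on all 3 arrays of a group, so for falling probes it largely fixes the WT count. Knockout readings under the lowest level of any probe well above background on that array were first raised to that level. For the 7 members well above background on no HuD KO array only a bound can be given, as the WT mean over the resulting knockout mean. It ranged from at least 5.73-fold lower for AK133405 (mmu_circRNA_42730) to at least 16.2-fold lower for AK081271 (mmu_circRNA_41016), with at least 14.3-fold for 4930593A02Rik, 12.8-fold for 4930554G24Rik, 7.97-fold for G730013B05Rik, 7.73-fold for A330044P14Rik and 6.92-fold for F630206G17Rik. In the higher table, no member was below background on all WT arrays. Lower-table members whose WT signal was at or below the median of their group had a median log2 change of -3.32, and those above it -1.99.

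The 7 HuD-bound members were chosen in other animals, and their change in the knockout could be tested. Limma called 6 of the 7, 4 lower and 2 higher, where 37.2% and 26.1% of all tested probes were called in those directions. Without mmu_circRNA_39139, which the lower table also holds, 5 of 6 were called, 3 lower and 2 higher. Of the other 650 tested circRNAs on the bound list 13.5% were called lower and 42.6% higher. With scan as a random block, and also without WT replicate 2, limma called 3 of the 7, all lower (XLOC_027457, XLOC_019302 and BC005537). Among these 3, XLOC_019302 is the host of mmu_circRNA_39139, so its call is not independent of the choice of the lower table. With only 7 members no difference from the remaining bound circRNAs is stated.

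XLOC_027457 is an intronic circle with no gene of the table around it. Its probe read 8.04, 7.72 and 8.04 in HuD KO and 9.16, 9.23 and 9.24 in WT. All knockout arrays were below all WT arrays, and it fell by 1.28 ± 0.15 (SE; limma adjusted p = 0.000228), the only bound member called under every one of the 20 alternative settings. The 21-base repeat printed above lies within this probe. XLOC_019302 (mmu_circRNA_39139, minus strand of chromosome 5, 109845471 to 109863856) read 2.63, 2.43 and 1.82 in HuD KO and 3.16, 3.50 and 3.39 in WT. The log2 difference was -1.06 ± 0.23 (SE), given without a test because the lower table was chosen on it. The probe of this circle is shown as that of the only member found in both sources.
mmu_circRNA_39139: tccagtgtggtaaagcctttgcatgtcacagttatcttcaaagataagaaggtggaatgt

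BC005537, a protein-coding gene on chromosome 13, had mmu_circRNA_26148 at -1.15, -1.19 and -1.26 in HuD KO and -0.48, -0.54 and -0.77 in WT. It fell by 0.60 ± 0.14 (SE; limma adjusted p = 0.00669). Gm608 is the former name of Usf3, which encodes a transcription factor of the upstream stimulatory factor family. Its bound circle mmu_circRNA_29753 read -0.06, 0.08 and 0.24 in HuD KO and 0.57, 0.50 and 0.49 in WT, and fell by 0.43 ± 0.14 (SE; limma adjusted p = 0.0271). This call was made under 12 of the 20 alternative settings, with limma adjusted p up to 0.788, and that of BC005537 under 19, with limma adjusted p up to 0.776. Over the alternatives the log2 change of the BC005537 circle ran from -1.31 to -0.084. A further Usf3 circle, mmu_circRNA_29752, starts 1710 bases upstream, ends at the same base and stood in the lower table. It read -0.44, -0.56 and 0.16 in HuD KO and 1.46, 1.58 and 1.48 in WT, a log2 difference of -1.79 ± 0.20 (SE). Their probes share 11 bases (capitals). The difference between these circles was not tested, since the lower table chose one of them.
mmu_circRNA_29752: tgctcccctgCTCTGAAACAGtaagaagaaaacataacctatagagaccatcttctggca
mmu_circRNA_29753: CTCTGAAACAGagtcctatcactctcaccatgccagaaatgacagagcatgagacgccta

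The members that rose were circles of Gm20696 and XLOC_002678. Gm20696 gave the longest span of all members, 343448 bases on the minus strand of chromosome 6 (99308343 to 99651791), which reaches across Foxp1, a transcription factor of striatal neurons, and Eif4e3, a cap-binding protein. Its mmu_circRNA_40622 read 1.61, 1.54 and 1.17 in HuD KO and 0.98, 0.81 and 0.84 in WT, and rose by 0.56 ± 0.16 (SE; limma adjusted p = 0.0170), a call made under 13 of the 20 alternatives, with limma adjusted p up to 0.446. The XLOC_002678 circle mmu_circRNA_22768 read -0.18, -0.37 and -0.49 in HuD KO and -0.76, -0.94 and -1.03 in WT, and rose by 0.56 ± 0.15 (SE; limma adjusted p = 0.0123), a call made under 17 of the 20, with limma adjusted p up to 0.467. Its partner mmu_circRNA_22769 read 0.20, 0.01 and -0.06 against -0.22, -0.24 and -0.40. The log2 change of the partner was 0.34 ± 0.14 (SE; limma adjusted p = 0.0680), short of the threshold although its arrays did not overlap either. The direction of Gm20696 and of both XLOC_002678 circles turned when the control probes for circRNA set the scale, and that of the bound Usf3 circle turned without scaling.
mmu_circRNA_40622: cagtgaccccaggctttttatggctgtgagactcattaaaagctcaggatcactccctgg

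**Figure D3:**
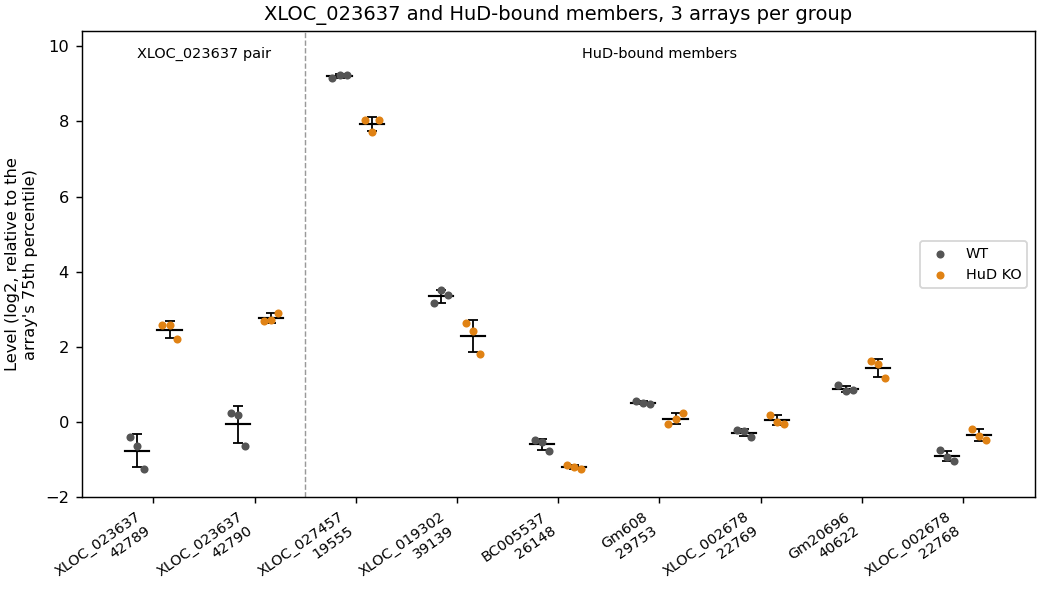
Level on each array (points, log2 relative to the array's 75th percentile), with mean and SD over the 3 arrays of a group (lines and bars), for the XLOC_023637 pair (left of the dashed line) and the 7 HuD-bound members, ordered by log2 change. Both XLOC_023637 circles are near 2.5 in HuD KO, and among bound members XLOC_027457 and XLOC_019302 show the widest gaps between group means, at -1.28 and -1.06.

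Of the 119 hosts, 103 had 1 member circle and 16 had 2 or more. In 5 of these 16, circles of the same host stood in opposite tables. The 23 pairs of circles from 1 host comprised 8 that share a start or an end, and all 8 had differences of the same sign. Their probes share runs of 11 to 34 bases. Of the 15 pairs with neither end in common 8 had opposite signs, and the probes of these 15 pairs share no more than 7 bases. The 8 all come from the 5 hosts in opposite tables. XLOC_010800 and 9330182L06Rik, with more than 2 circles each, enter with several pairs that reuse the same circles, so pairs are not independent. The longest shared run, of 34 bases, was that of AK015277, a locus within the complement factor H-related gene Cfhr3, whose circles (mmu_circRNA_20953 and mmu_circRNA_20954) had log2 differences of -4.04 and -2.99 between the groups.

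XLOC_010800, beside the 18S-related pseudogene, showed both directions. The circle positioned inside the pseudogene (strand not compared), mmu_circRNA_011174, read 4.21, 3.45 and 3.03 in HuD KO and 5.12, 5.32 and 5.46 in WT, a log2 difference of -1.74 ± 0.29 (SE). The circles outside it were higher in every knockout array. mmu_circRNA_015214 read 3.40, 3.17 and 2.89 against 1.66, 1.89 and 1.98 (difference 1.31 ± 0.18), mmu_circRNA_005444 read 3.08, 3.13 and 2.56 against 1.65, 1.56 and 1.54 (1.34 ± 0.18), and mmu_circRNA_014320 read 0.80, 0.84 and 0.22 against -0.71, -0.46 and -0.46 (1.16 ± 0.20). Ribosomal sequence occurs in many copies, and a probe on it cannot be assigned to a single locus.

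9330182L06Rik is now Elapor2, a protein-coding gene on chromosome 5. Its circle mmu_circRNA_38093 read 2.93, 2.71 and 4.43 in HuD KO and 4.71, 4.8 and 4.79 in WT, a log2 difference of -1.41 ± 0.41 (SE), with HuD KO replicate 3 close to the WT arrays. Downstream, mmu_circRNA_38094 read 0.23, 0.44 and 0.38 against -0.94, -0.73 and -0.74, a difference of 1.15 ± 0.14. The third circle, mmu_circRNA_38098, read -2.18, -1.78 and -3.54 against -3.93, -3.47 and -3.92. Its difference of 1.28 ± 0.42 (SE) rested on replicates 1 and 2, since HuD KO replicate 3 lay within the WT range, and it was 0.16 with normexp and the 75th percentile. The circles overlap along the gene and share neither start nor end.

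A330076H08Rik is a long noncoding RNA gene on chromosome 7. Its exonic circle mmu_circRNA_41543 read -1.24, -1.26 and -0.91 in HuD KO and 0.80, 0.84 and 0.27 in WT, a log2 difference of -1.77 ± 0.20 (SE). Its mmu_circRNA_41550 spans 129399 bases that reach beyond the gene across the microRNA genes Mir344g, Mir344f and Mir344i, and it read -1.59, -1.11 and -1.08 against -2.46, -2.37 and -2.12, a difference of 1.06 ± 0.19 that was 0.42 with normexp and the 75th percentile. The probe of this second circle shares 27 bases with that of mmu_circRNA_41565, assigned to Mir344i. Among the 3056 probes with a sequence here, it was the only one of another host to hold 25 or more bases of a member probe. The remaining probes of the array could not be compared.

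D630045J12Rik and 2210408I21Rik are protein-coding genes without a name, on chromosomes 6 and 13. Of D630045J12Rik, mmu_circRNA_40147 read -0.18, -0.39 and 0.15 in HuD KO and 1.49, 1.65 and 1.32 in WT, a log2 difference of -1.63 ± 0.18 (SE), while mmu_circRNA_005414 read 1.49, 1.58 and 1.23 against -0.05, 0.05 and 0.32, a difference of 1.33 ± 0.16. Of 2210408I21Rik, mmu_circRNA_26594 read 0.54, 0.34 and 0.39 against 1.76, 1.73 and 1.72 (difference -1.31 ± 0.13), and mmu_circRNA_006031 read 1.62, 1.55 and 1.03 against 0.11, -0.09 and 0.32 (1.29 ± 0.20). No knockout array overlapped a WT array for any of these circles.

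**Figure D4:**
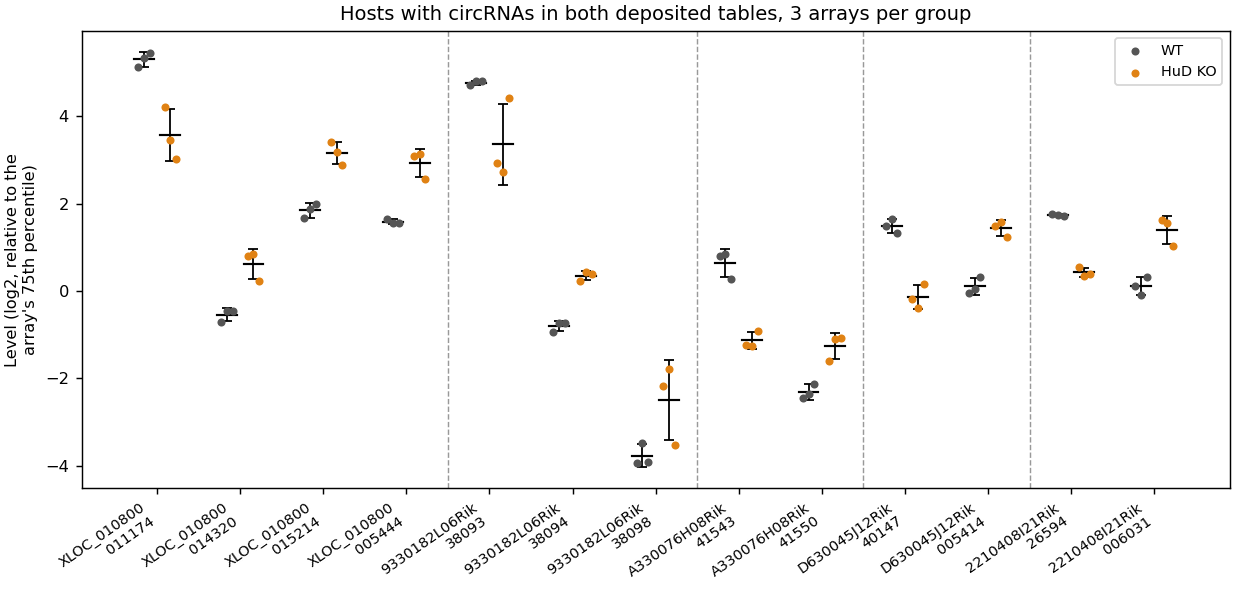
Level on each array (points, log2 relative to the array's 75th percentile), with mean and SD over 3 arrays per group, for the 13 circles of the 5 hosts with circRNAs in both deposited tables. Dashed lines separate hosts. HuD KO lies under WT for 1 circle of each host and over it for the others, with an overlap only for mmu_circRNA_38098 of 9330182L06Rik.

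The provisional names were compared with a current gene table (RefSeq, assembly GRCm38.p6). It listed 56 of the 119 hosts under the same symbol and 21 as a synonym of another symbol, and did not list 42. Of the 138 circRNAs, 48 belonged to a protein-coding gene, 28 to a long noncoding RNA gene and 12 to a pseudogene or small RNA gene. Of the circles of unlisted hosts, 18 lay within a protein-coding gene, 12 within a long noncoding RNA gene, 2 within another gene and 18 within none. Position alone decided this, and strands were not compared. Circles of listed hosts were counted by the host's kind, whatever their own strand or class.

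Circles of long noncoding RNA genes were mostly in the lower table. Of the 28 with a listed long noncoding host 25 were lower, with a median log2 change of -3.25, and the 3 higher ones (4933412O06Rik, A330076H08Rik and Gm15155) had differences between 1.0 and 1.07 and are named because they are few. Together with the 12 inside another long noncoding RNA gene the split was 35 lower and 5 higher. Among the latter 12 was Gm27017, inside Dleu2, a long noncoding RNA gene that hosts the miR-15a and miR-16-1 precursors, at -2.45. Of all table members 73.5% were lower. The 14 circRNAs of named noncoding RNA hosts were 7 lower and 4 higher, with a median of -0.84 over all 14. The -3.25 is from the main processing only. Over all lower-table members the median was -1.12 with normexp and quantile normalization. It was -3.32 for members dimmer in WT and -1.99 for brighter ones in the main processing.

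Circles of protein-coding genes split into 34 lower and 12 higher, with medians of -2.08 and 1.28, and 2 more were on the bound list alone. The 5 former provisional names with the largest differences, after their present symbols, were Mir99ahg (above), Shoc1, Arhgef18, Zfp984 and Potegl. The circle of AI481877, now Shoc1, a meiotic crossover gene, read -6.55, -4.75 and -4.47 in HuD KO and -2.29, -1.80 and -2.03 in WT, a log2 difference of -3.22 ± 0.49 (SE). It was not well above background on HuD KO replicate 1, the difference was -2.57 without that array and -0.54 with normexp and quantile normalization, and on the authors' normalized values it was 2.0-fold lower. The circle of A430078G23Rik, now Arhgef18, read -5.27, -4.68 and -4.52 against -2.05, -1.70 and -2.04 (difference -2.89 ± 0.22). It too was not well above background on HuD KO replicate 1, and the difference was -2.67 without that array and -0.62 with normexp and quantile normalization. The circle of Gm13157, now the zinc finger gene Zfp984, read -3.63, -3.04 and -2.75 against -0.12, -0.16 and -0.92 (-2.73 ± 0.29). The circle of 4931423N10Rik, now Potegl, read -3.78, -4.17 and -3.46 against -1.44, -1.29 and -1.32 (-2.45 ± 0.19). With normexp and quantile normalization the differences were -1.16 for Zfp984 and -0.75 for Potegl.

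Of the circles with pseudogene or small RNA hosts 8 were in the higher and 4 in the lower table. Gm22632, listed as a small nucleolar RNA, and Gm25499, listed as a pseudogene, lie inside Snhg14, the long imprinted transcript that hosts the Snord116 and Snord115 clusters, and had circles in the higher table (named for their position after their values were seen). That of Gm22632 (mmu_circRNA_016934) read 5.11, 4.83 and 4.58 in HuD KO and 3.24, 3.38 and 2.77 in WT, a log2 difference of 1.71 ± 0.21 (SE). That of Gm25499 (mmu_circRNA_41491) read 0.37, 0.45 and -0.20 against -1.46, -1.34 and -1.12, a difference of 1.52 ± 0.21. All knockout arrays were above all WT arrays for both.

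Of the circles of unlisted hosts that lie inside a protein-coding gene, 10 were lower, 6 higher and 2 were the bound XLOC_002678 pair. The lower ones included 3 circles of XLOC_000762 and XLOC_000763 in Rp1, a photoreceptor ciliary gene, between -3.90 and -2.89, and the circle of Gm5908 in Nrg1, a ligand of ErbB receptors, at -0.80, the smallest difference among all lower-table members. These, Gm27017, AK015277 and BC116202 are named for their position after their values were seen. A BC116202 circle of 82 bases, mmu_circRNA_007085, lies within Rpph1, the RNA component of ribonuclease P. It read -0.44, -0.59 and -0.36 in HuD KO and 1.71, 1.74 and 1.82 in WT, a log2 difference of -2.22 ± 0.13 (SE). Its probe is printed because the gene annotated there is itself a short noncoding RNA.
mmu_circRNA_007085: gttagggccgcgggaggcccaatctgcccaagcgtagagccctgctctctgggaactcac

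**Figure D5:**
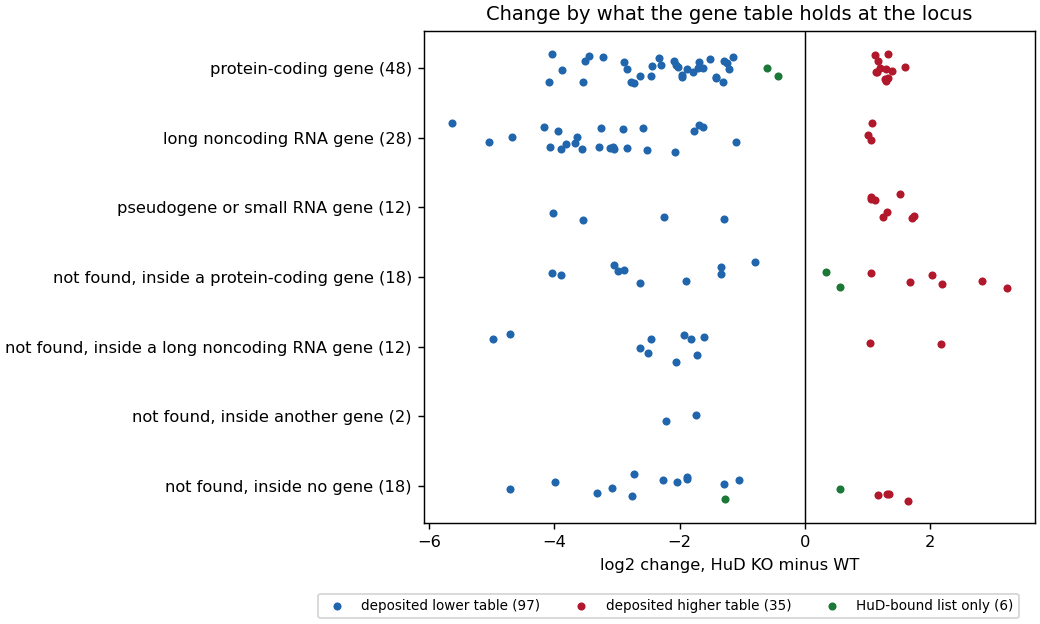
Log2 change in HuD KO against WT (horizontal axis) for each of the 138 members, grouped by what the gene table holds at the locus (number of members in brackets) and coloured by source; points are spread vertically for legibility. Long noncoding RNA genes hold 25 lower and 3 higher members, and pseudogenes and small RNA genes 4 lower and 8 higher.

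The members differed from other table circRNAs in class. Of those in the tables, 47.0% were sense overlapping (same strand as the host but not made of its annotated exons alone), 40.2% exonic, 6.82% intronic and 6.06% antisense, where the other 2356 were 75.8% exonic and 12.9% sense overlapping. Sense overlapping members numbered 46 in the lower table and exonic members 39, with medians of -2.63 and -2.45. In the higher table they numbered 16 and 14, with medians of 1.30 and 1.30. The spans ran from 64 to 343448 bases, with a median of 10530 in the lower and 9088 in the higher table, against 7910 and 17929 for the others. Only 6 members spanned fewer than 200 bases, and 12 spanned 50000 or more.

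AU-rich words were counted in the junction probes, since HuD binds AU-rich RNA. A probe is only 60 bases of a circle, so absence from it says nothing of the rest. ATTTA occurred as printed in 7 of 97 lower-table probes (7.22%) and 1 of 35 higher-table probes (2.86%), and as printed in 4.16% of the 3056 probes. On either strand it occurred in 15 lower-table probes (15.5%), 1 higher-table probe (2.86%), none of the 7 bound probes and 7.49% of the 3056. TTTTT, on either strand, occurred in 12.4% of lower-table, 8.57% of higher-table and 14.0% of all probes. The longer TATTTAT, which contains ATTTA, occurred as printed in 2 lower-table members, Gm5134 (mmu_circRNA_22246, chromosome 10) and Gm5724 (mmu_circRNA_41021, chromosome 6), and in 0.327% of the 3056 probes. The word is in capitals. The median GC content of the probes was 45.0% for lower-table and 43.3% for higher-table members.
mmu_circRNA_22246: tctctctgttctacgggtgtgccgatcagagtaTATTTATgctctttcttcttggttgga
mmu_circRNA_41021: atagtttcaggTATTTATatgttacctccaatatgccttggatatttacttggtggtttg

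For each table circRNA the authors list up to 5 predicted miRNA sites. The miRNA most often named was mmu-miR-7092-3p, listed for 24 of the 97 lower-table members (24.7%) and 5 of the 35 higher-table members (14.3%), where 9.51% and 11.2% of the other circRNAs of these tables listed it. mmu-miR-5110 was listed for 10 lower-table (10.3%) and 7 higher-table members (20%), where the others stood at 6.55% and 3.35%. mmu-miR-1187 and mmu-miR-7116-3p were each listed for 11 lower-table members (11.3%), where the others stood at 3.84% and 3.44%. In the higher table mmu-miR-1187 was listed for 2 members (5.71%, others 3.26%) and mmu-miR-7116-3p for 1 (2.86%, others 3.98%). mmu-miR-1903 was listed for 1 lower-table member (1.03%, others 6.31%) and 5 higher-table members (14.3%, others 11.3%). These miRNAs were chosen after their counts were seen. These are predictions, with 5 sites at most kept for each circle, and the level of the miRNAs was not measured. Their mature sequences (RefSeq, GRCm38.p6) show 5 different seeds, in capitals.
mmu-miR-7092-3p: uGUUCUUUguuuuguuugccuuag
mmu-miR-5110: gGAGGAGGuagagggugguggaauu
mmu-miR-1187: uAUGUGUGuguguauguguguaa
mmu-miR-7116-3p: uUUUUUUCcuuugccuucucag
mmu-miR-1903: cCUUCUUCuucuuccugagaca

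The gene lists kept for orientation were sparsely covered, because hosts are known only for circRNAs of the tables and the bound list, so they cannot check the tissue. Named noncoding RNA hosts had 14 circRNAs, 7 in the lower and 4 in the higher table (median log2 change -0.84). Striatal neuron hosts had 7, 2 in each table (0.08). Marker hosts of astrocytes had 2 (-0.14), of oligodendrocytes 2 (-1.84), of endothelium 2 (-2.25) and of cortical excitatory neurons 5 (0.11), and those of microglia had 0. The part of cell composition in the differences was not tested, and in tissue RNA fewer cells of a type and less RNA per cell cannot be told apart.

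On the values the authors normalized, the members nearest to the 2-fold limit of the tables were the Shoc1 circle mmu_circRNA_36859 (2.0-fold, lower) and mmu_circRNA_35262 of 4932438A13Rik (2.02-fold, higher), and 9 lower and 8 higher members were under 2.1-fold. CircRNAs just outside the limit are not in the tables, and their hosts are not known here.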

How the data were processed

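Striatal RNA of 3 HuD KO and 3 WT mice was analysed from the deposited scanner files. Per the file headers the authors used Agilent Feature Extraction 11.0.1.1, whose gProcessedSignal is a background-subtracted intensity. The deposited tables of higher and lower circRNAs also hold raw intensities, equal to the median spot intensity, and log2 values normalized by the authors, with the authors' own fold changes and p-values, which were not used. The authors chose these tables by a 2-fold limit and an unadjusted p on the same arrays.

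Intensities were set to log2 and reduced by each array's 75th percentile over circRNA probes. Spots flagged as outliers were left out. Probes well above background on all 3 arrays of a group and with at least 2 values a group were tested with limma 3.58.1 in R 4.3.3 (Benjamini-Hochberg over 13431 probes; threshold 0.05), and summaries were made in Python 3.11.15. The files hold no mean signal, so the normexp alternative (offset 50) used the median signal. The step was tested on simulated data. The number of arrays limits the precision, and p-values rest on the spread between arrays within a group. The WT arrays shared a scan, and HuD KO replicate 3 had a scan apart from the other knockout arrays. The p-values do not measure the scan difference that goes with genotype. Same-numbered samples of the groups correlated at -0.01, -0.03 and -0.08 in their deviations. No pairing by number was used, and with 3 arrays a group these values cannot exclude one.

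The members and gene lists were chosen with earlier results of these data known. Named circRNAs are the bound members, the XLOC_023637 circles, the 5 largest positive and negative differences among members well above background on all arrays, members of hosts with 3 or more members or with members in both tables, the 3 brightest in WT, and the 5 largest differences among hosts with a new symbol. Others are named for position or a bound. Hosts were matched to RefSeq genes (GRCm38.p6) by name, and circles were placed in genes by position without regard to strand. The build of the deposited positions is not given in the sources used here, and 2194 of 2197 named exonic circRNAs lay inside their host's span on GRCm38.p6. The alternatives covered scaling, background, filter, test, blocks and leaving out each array.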

Additional observations from a re-analysis of the deposited data

How the results depend on the processing

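Of the results over several circRNAs, the count of called probes (8501) stayed within 1.5 times under all 20 alternatives, from 6613 with scan as a random block to 9931 with array weights. The median log2 change of lower-table members (-2.52) was -2.07 without scaling, -3.28 with scaling on the circRNA control probes, -1.26 with normexp and the 75th percentile, -1.12 with normexp and quantile normalization, -2.0 over members well above background on all 6 arrays and -1.59 on the authors' normalized values. That of higher-table members (1.29) was 1.81, 0.58, 1.01 and 0.96 under the first 4 of these. Normexp adds an offset that shrinks dim differences by construction, and the cause of the others was not tested. These scalings moved the median of all probes (-0.11) to 0.41 without scaling and -0.82 with control probes.

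The count of called HuD-bound members (6) was 3, all lower, with scan as a random block, and 3 to 7 leaving out 1 array, lowest without WT replicate 2. The 6 and the 3 include XLOC_019302, which the lower table also holds. Leaving out 1 array gave medians of -2.65 to -2.42 (lower) and 1.22 to 1.42 (higher), and 7069 to 9149 called probes. With the replicate number as a block, although no pairing of these mice is stated, 7976 probes and 5 bound members were called (Gm608 lost). Signs turned for Gm20696 (-0.14) and the XLOC_002678 circles mmu_circRNA_22768 (-0.14) and mmu_circRNA_22769 (-0.37) with control-probe scaling, and for mmu_circRNA_29753 of Gm608 (0.088) without scaling; the 30 other named members kept their sign throughout.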
